A study of Mus musculus with 32 samples.

Results

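The genes described here are 10 markers of T cells and natural killer (NK) cells: Cd3d, Cd3e, Cd3g, Cd4, Cd8a, Gzma, Gzmb, Prf1, Nkg7 and Ncr1. They are read through the probes other than controls whose gene name on the array is one of these 10, whatever their values. The names took in 13 of the 55681 probes measured, with 1 probe for each of 7 genes and 2 probes for each of Cd4, Cd8a and Nkg7. The array carries 34821 gene names in all.

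T cells recognise antigen through a receptor that reaches the cell surface and signals only together with the CD3 chains, and Cd3d, Cd3e and Cd3g encode the delta, epsilon and gamma chains. CD4 and CD8 are the co-receptors that mark helper and cytotoxic T cells. Cytotoxic T cells and NK cells kill through granules that hold perforin (Prf1), which opens the membrane of the target, and granzymes (Gzma, Gzmb), the proteases that act inside it. Nkg7 is a membrane protein of these granules, and Ncr1 encodes NKp46, an activating receptor by which mouse NK cells are recognised. Lymphocytes of both kinds live in the sinusoids of the liver.

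The study set liver cells from the surroundings of colorectal cancer metastases, the tumor microenvironment (TME), against the same cells of healthy livers, with 4 samples in each of 8 groups. All mice were Balb/c males 6 to 8 weeks old. C26 colon carcinoma cells, a line of the same mouse strain, were injected into the spleen of the TME mice and PBS into that of the controls, and liver cells were taken 14 days later. EC and ET denote sinusoidal endothelial cells of control and TME livers, IC and IT Ito cells (the hepatic stellate cells that store vitamin A), KC and KT Kupffer cells (the resident macrophages), TM cells of the liver metastases and TP cells of the primary tumors. The liver fractions were obtained by collagenase perfusion and density gradients, with adherence for Kupffer cells, and were kept in culture for at most 24 hours. They were therefore enriched fractions, and the members are read here as a measure of lymphocyte RNA in them. How the TM and TP cells were collected is not given in the sources used here.

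The probes are stretches of 60 bases of the transcripts. Those shown are a Cd3d probe whose signal stood for the T cell pattern of the liver fractions, the Cd8a probe used for the comparisons, and the second Cd4 and Nkg7 probes, which read differently from their partners on the same gene. Each is printed 5′ to 3′ as the array files hold it, with no part in capitals, and positions are on mm9.
Cd3d, chr9:44794171-44794402, plus strand, its 60 bases spread over 232 bases of the genome: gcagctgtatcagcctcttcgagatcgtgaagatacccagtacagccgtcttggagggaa
Cd8a, chr6:71323885-71323944, plus strand: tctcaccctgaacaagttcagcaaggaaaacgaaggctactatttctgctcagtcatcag
Cd4, second probe, chr6:124817706-124817765, minus strand: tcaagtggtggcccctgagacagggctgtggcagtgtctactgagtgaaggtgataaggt
Nkg7, second probe, chr7:50693148-50693207, plus strand: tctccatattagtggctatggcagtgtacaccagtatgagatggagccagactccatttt
The probes of the other genes lie at chr9:44806828-44806887 (Cd3e, minus strand), chr9:44777868-44777927 (Cd3g, minus), chr6:124814711-124814770 (Cd4, main probe, minus), chr6:71328911-71328970 (Cd8a, second probe, plus), chr13:113884035-113884094 (Gzma, minus), chr14:56877916-56877975 (Gzmb, minus), chr10:60766941-60767000 (Prf1, plus), chr7:50693530-50693589 (Nkg7, main probe, plus) and chr7:4296176-4296235 (Ncr1, plus). The main probe of a gene was the one well above background in most samples.

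Each array carried the control and TME sample of 1 replicate number, or a TM and a TP sample, with Cy3 on control and TM samples and Cy5 on TME and TP samples throughout, so that dye and condition cannot be told apart. No spot was saturated, and between 38.4 and 57.1% of spots per sample were well above background. On array 4 of the Ito cells the TME minus control difference ran against the mean of the other 3 arrays over the 17105 probes well above background in all samples (r = -0.66), and the same held for array 4 of the Kupffer cells (r = -0.60). In endothelial cells the r of each array with the other 3 lay between 0.51 and 0.78. It was lower on Ito arrays 1 to 3, at 0.19, 0.24 and 0.28, and on Kupffer arrays 1 to 3, at 0.47, 0.41 and 0.43. The mean of the other arrays there included array 4. The 4 samples of array 4 of the Ito and Kupffer cells were kept under their labels. Whether control and TME were exchanged on array 4 of these cell types cannot be told from the sources used here. The sign of the differences there would turn if they were, so the calls are given with these samples and in a fit without them. That fit was chosen after seeing the data and leaves out arrays by the direction of the difference tested. Its p values are therefore given as a description and not as a separate test of the TME difference. A call below means an adjusted p under 0.05 in the limma fit to all 32 samples, with Benjamini-Hochberg adjustment over the 55681 probes. Levels are log2 intensities of the deposited table, where values of about 2 to 4 mostly belong to spots that are not above background. In these bulk samples fewer lymphocytes and less RNA per lymphocyte cannot be told apart.

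Cd3d and Cd3g were measured in every endothelial sample and were higher in the TME ones. Cd3d read 7.05, 7.05, 6.83 and 7.27 in EC replicates 1 to 4, and 8.04, 8.14, 7.58 and 8.05 in ET. Cd3g read 6.57, 6.62, 6.53 and 6.44 in EC, and 7.54, 7.96, 7.16 and 7.61 in ET. For both genes the lowest ET sample lay above the highest EC sample, although neither difference was called. The differences were 0.90 for Cd3d (SE 0.97, adjusted p = 1) and 1.03 for Cd3g (SE 1.04, adjusted p = 1) on the log2 scale.

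In the Ito fraction the CD3 genes separated array 4 from the others. Cd3d read 4.85, 3.33, 3.87 and 8.97 in IC replicates 1 to 4, and 8.98, 8.51, 8.62 and 4.80 in IT. Cd3g read 4.77, 2.01, 3.70 and 9.04 in IC, and 8.73, 6.43, 8.56 and 5.03 in IT. On arrays 1 to 3 both genes were high in the TME sample and, in IC replicates 2 and 3, not well above background, while on array 4 the control sample was the high one. With all samples the IT minus IC differences were 2.47 (SE 0.97, adjusted p = 0.401) for Cd3d and 2.31 (SE 1.04, adjusted p = 0.470) for Cd3g. Without array 4 of the Ito and Kupffer cells they were 4.69 (SE 0.51, adjusted p = 5.35e-06) and 4.41 (SE 0.60, adjusted p = 6.08e-05), measured against an IC group in which 1 of the 3 remaining samples was above background for either gene, and over all alternatives the adjusted p reached 1 for both genes.

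In Kupffer cells every Cd3d and Cd3g value lay below every endothelial one, a comparison across slides that was not tested. Against control Ito cells the levels were close on arrays 1 to 3. The means there were 4.25 in KC and 4.02 in IC for Cd3d, and 3.35 and 3.49 for Cd3g. Cd3d read 3.44, 3.35, 5.95 and 5.90 in KC replicates 1 to 4, and 5.61, 5.85, 6.12 and 2.50 in KT. The 2 lowest KC samples and KT replicate 4 were not well above background, and KC replicate 3 read like the TME samples. Cd3g followed with 2.49, 2.75, 4.81 and 5.85 in KC, and 5.37, 5.89, 5.93 and 2.03 in KT. Neither gene was called with all samples. Without array 4, Cd3g was called at least 1.54-fold higher in KT (adjusted p = 0.0265), and over all alternatives its adjusted p lay between 0.0045 and 1. Cd3d was not called (adjusted p = 0.0843) unless KC replicate 3 was left out too, which leaves no KC sample above background for it. In the tumors none of the 8 samples was well above background for Cd3d, with values between 2.28 and 4.06, or for Cd3g, with values between 2.03 and 2.87.

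The third chain, Cd3e, did not follow the other chains. Its probe was well above background in all 32 samples, tumors included, and read 9.11 to 9.18 in EC, 9.12 to 9.17 in ET, 9.06 to 9.32 in IC and 9.26 to 9.93 in TP. Apart from IT replicate 2 at 11.48 and KC replicate 3 at 10.82, every sample lay between 8.80 and 9.93. Over the 24 liver cell samples Cd3d correlated with Cd3g at r = 0.97 and with Cd3e at r = 0.27, a description across samples that share arrays and cell isolations. The Cd3e probe thus gave signal in the tumor samples, where Cd3d and Cd3g were at background, and it is not read here as a measure of T cells.

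**Figure D1:**
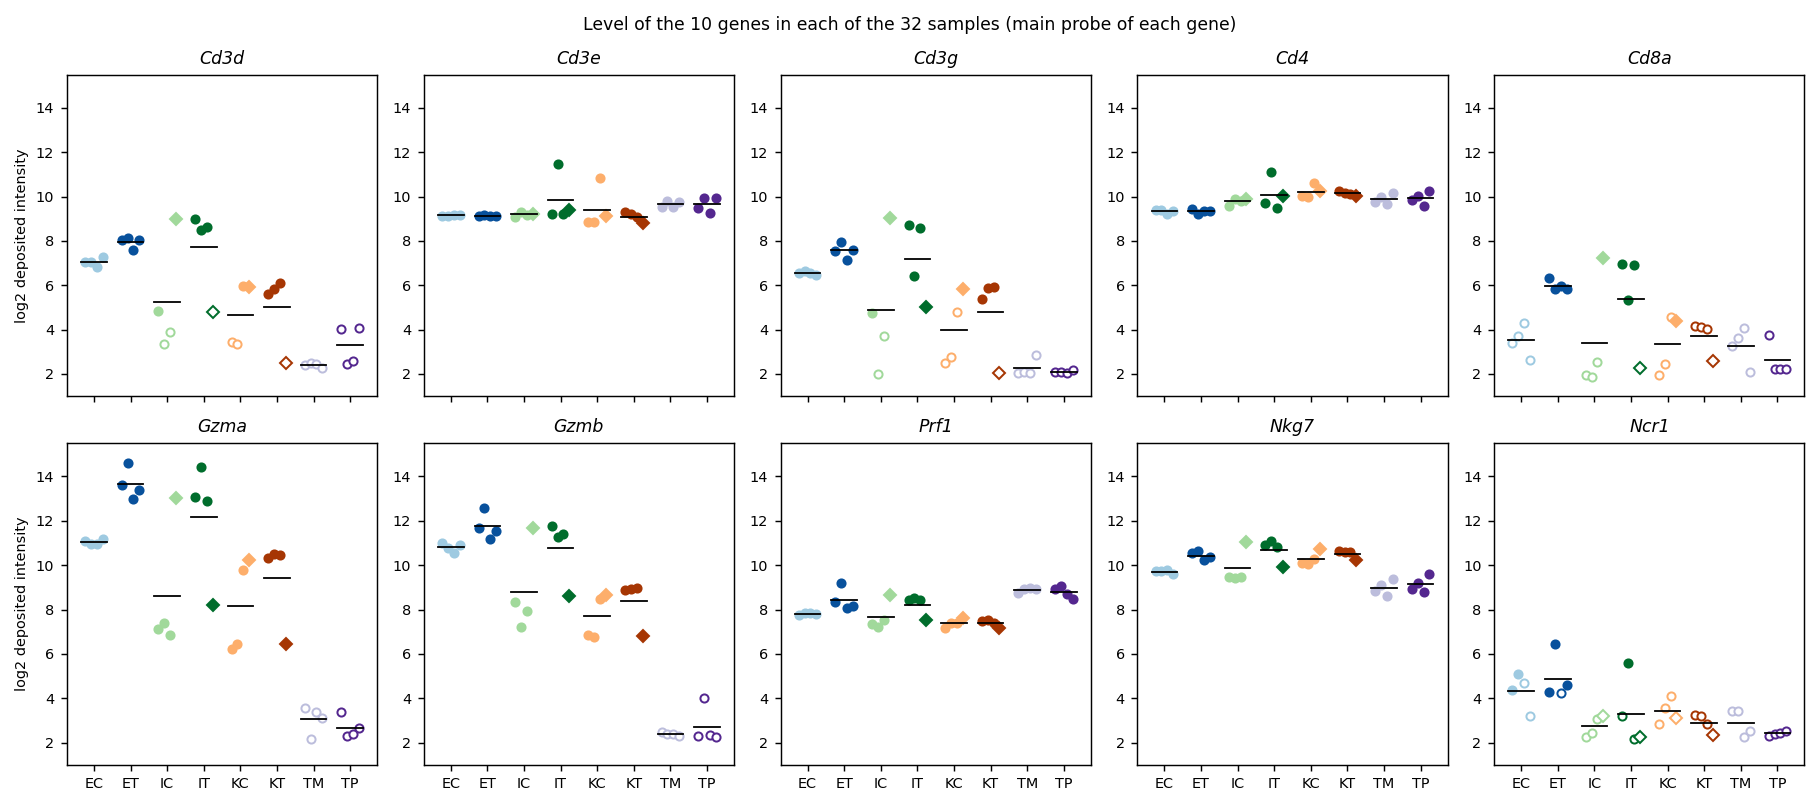
Log2 deposited intensity of the main probe of each of the 10 genes (y axis) in the 4 samples of each of the 8 groups (x axis). Filled symbols are well above background, open symbols are not, diamonds are replicate 4 of the Ito and Kupffer cells, and bars are group means. Gzma falls from 12.98 or more in every ET sample to 3.57 or less in every tumor sample, while Cd3e and Cd4 stay above 8 throughout.

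The co-receptor probes gave opposite pictures. The main Cd4 probe was well above background in all 32 samples, with 9.20 to 9.40 in EC, 9.23 to 9.44 in ET, 9.99 to 10.63 in KC and 10.03 to 10.26 in KT, and with 9.59 to 10.23 in TP. The second Cd4 probe read between 3.11 and 4.97 in every sample and was well above background in 14 of them. The r between these 2 probes over the 24 liver samples was 0.37. The main Cd4 probe correlated with the Cd3e probe at 0.66 and with the Cd3d probe at -0.25.

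Cd8a had a clear pattern on a low signal. It read 3.40, 3.73, 4.30 and 2.63 in EC replicates 1 to 4, and 6.34, 5.83, 5.95 and 5.83 in ET. All ET samples were well above background and no EC sample was, so the difference is a bound, with Cd8a at least 1.82-fold higher in ET. Such bounds set the mean of the brighter group, in log2 signals of the scanner output after loess and Aquantile normalization, against the higher of the dim probe's own signal and the lowest signal well above background on each array, and they are open to dye bias since no dyes were swapped. This was not called with all samples (adjusted p = 0.364) and was called without array 4 of the Ito and Kupffer cells (adjusted p = 0.0101), with a range of 0.00174 to 1 over all alternatives. The second Cd8a probe gave a bound of at least 1.52-fold in the same direction.

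In Ito cells the main Cd8a probe read 1.96, 1.85, 2.53 and 7.21 in IC and 6.97, 5.34, 6.89 and 2.29 in IT. The only sample of IC above background was replicate 4, and the only one of IT that was not was again replicate 4. Without array 4 Cd8a was called at least 2.14-fold higher in IT (adjusted p = 8.11e-05, against 0.498 with all samples). In Kupffer cells 1 of 8 samples was well above background, KC replicate 4 at 4.40, and no tumor sample was. The second Cd8a probe read 6.60 in TM replicate 2 and 6.67 in TP replicate 2, both on the same array. This probe has 10 spots, of which the deposited table holds the first, here marked as an outlier in the scanner output with 73.4 and 77.7 against at most 7.47 and 6.55 for the other spots, and with outlier spots left out the tumor samples read between 2.16 and 2.20.

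Among the genes of the cytotoxic granule, Gzma spanned the widest range of the members. It read 11.10, 10.95, 10.96 and 11.17 in EC and 13.61, 14.62, 12.98 and 13.40 in ET. Every ET sample lay above every EC sample, and the difference was 2.61 (SE 1.23, adjusted p = 0.617), or 6.11-fold. The SE fell to 0.55 and the adjusted p to 0.0113 without array 4 of the Ito and Kupffer cells, with a range of 9.58e-05 to 1 over all alternatives. 

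The Ito fraction showed the largest Gzma difference. Values were 7.11, 7.40, 6.85 and 13.05 in IC, and 13.09, 14.43, 12.91 and 8.19 in IT. Arrays 1 to 3 thus held about the level of ET in the TME sample and a much lower one in the control, and array 4 held the reverse. The difference was 3.56 with all samples (SE 1.23, adjusted p = 0.338) and 6.36 without array 4 (SE 0.63, adjusted p = 1.47e-06). In Kupffer cells Gzma read 6.2, 6.43, 9.79 and 10.22 in KC and 10.32, 10.52, 10.45 and 6.44 in KT, a difference of 1.28 with all samples (adjusted p = 0.916) and of 2.96 without array 4 (adjusted p = 0.00992).

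Gzmb was high in the same samples with smaller steps. It read 10.99, 10.77, 10.57 and 10.91 in EC, and 11.68, 12.57, 11.18 and 11.56 in ET. In Ito cells it read 8.36, 7.19, 7.94 and 11.67 in IC, and 11.78, 11.25, 11.39 and 8.61 in IT. In Kupffer cells it read 6.84, 6.78, 8.47 and 8.67 in KC and 8.88, 8.91, 8.98 and 6.81 in KT. The ET samples did not overlap with the EC samples (0.94, SE 0.74, adjusted p = 1), and the reversal on array 4 was present in both other cell types. Without array 4 the IT minus IC difference was 3.64 (adjusted p = 1.35e-05) and the KT minus KC difference 1.56 (adjusted p = 0.0456), and neither was called with all samples (adjusted p = 0.377 and 0.931).

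Prf1 was well above background in all 32 samples. It read 7.76 to 7.86 in EC and 8.32, 9.21, 8.06 and 8.18 in ET. In Ito cells it read 7.34, 7.19, 7.51 and 8.65 in IC and 8.44, 8.51, 8.41 and 7.51 in IT. Kupffer cells, with 7.15 to 7.61 in KC and 7.16 to 7.51 in KT, showed no such step. The ET minus EC difference of 0.63 (SE 0.26) was not called in any fit, with adjusted p between 0.0742 and 1, whereas the IT minus IC difference was called without array 4 (1.1, SE 0.20, adjusted p = 0.00129; 0.490 with all samples).

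Both Nkg7 probes moved in the same direction, on different scales. The main probe, well above background in all samples, read 9.61 to 9.79 in EC and 10.22 to 10.62 in ET, a difference of 0.72 (SE 0.28, adjusted p = 0.380; 0.0134 without array 4 of the Ito and Kupffer cells, and between 0.00782 and 1 over all alternatives). The second probe read 7.14 to 7.84 in EC and 8.57 to 9.49 in ET, a difference of 1.35 (SE 0.87). In IC the main probe read 9.48, 9.43, 9.47 and 11.04, and in IT 10.91, 11.07, 10.82 and 9.93, and without array 4 the difference was 1.47 (adjusted p = 1.73e-05). The probes parted in the tumors, where the main one read 8.61 to 9.62 and was well above background in all 8 samples and the second was above background in none. Over the 24 liver samples the second Nkg7 probe correlated with Cd3d at r = 0.96 and with the main Nkg7 probe at r = 0.50.

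Ncr1, the only member specific to NK and related innate cells, was near the limit of the array. It was well above background in 6 of 32 samples, namely 2 of EC (4.38 and 5.07), 3 of ET (4.30, 6.45 and 4.58) and IT replicate 2 (5.57). It was not called in any comparison with all samples. The smallest adjusted p values were 0.0743 for IC against EC, where it was lower in IC (between 0.0488 and 0.358 over all alternatives), and 0.0826 for IT against ET, where it was lower in IT (between 0.00982 and 0.456).

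**Figure D2:**
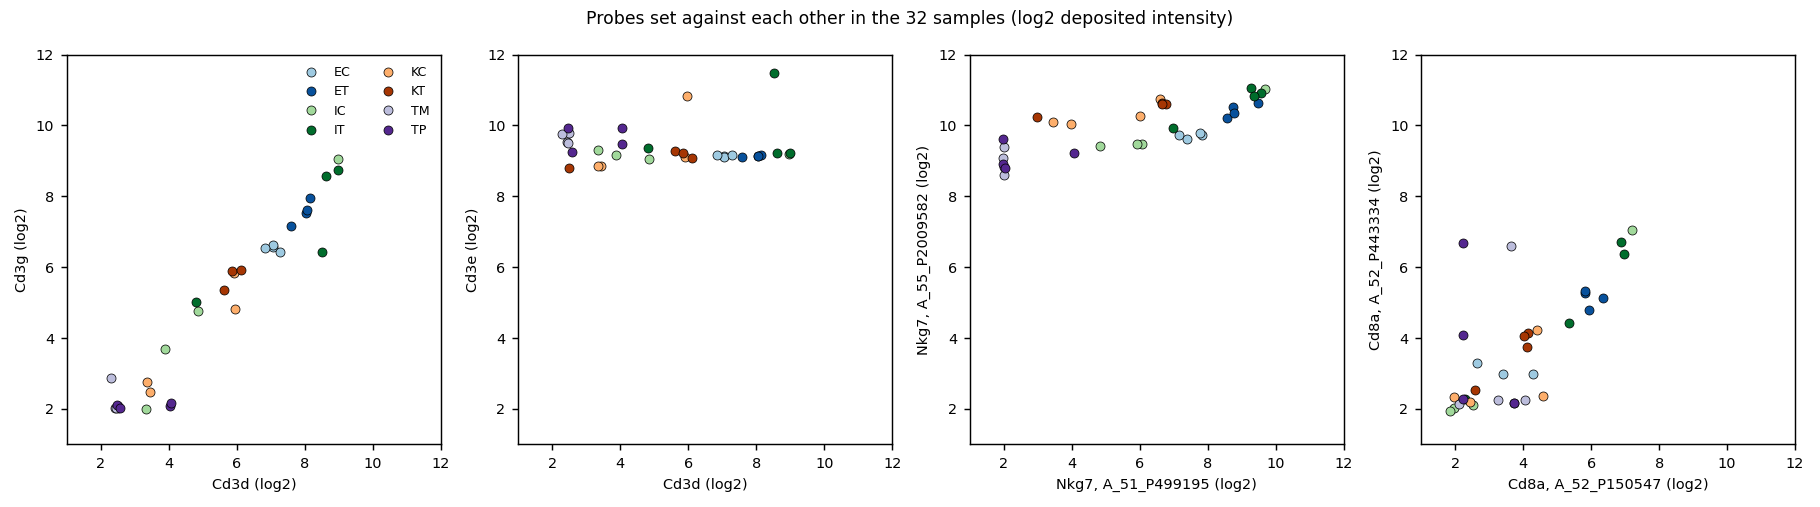
Log2 deposited intensities of pairs of probes set against each other, 1 point per sample in all 32 samples, coloured by group. Cd3g follows Cd3d, whereas Cd3e lies near 9 over the whole range of Cd3d except in 2 samples, the main Nkg7 probe reads 8.61 or more where the second probe is at background, and the second Cd8a probe has 2 high tumor samples from 1 array.

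**Figure D3:**
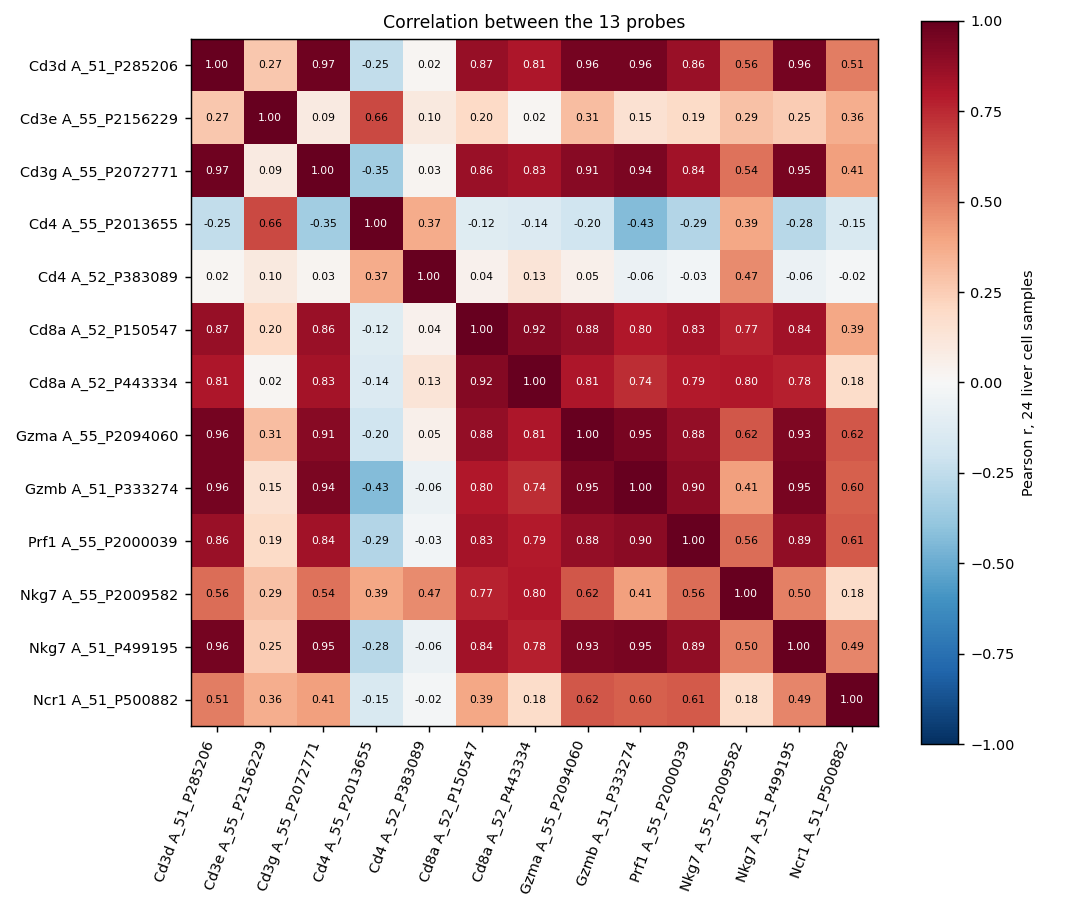
Pearson r between each pair of the 13 probes over the 24 liver cell samples, which share arrays and isolations, given as a description. Cd3d, Cd3g, Cd8a, Gzma, Gzmb, Prf1 and the second Nkg7 probe form a block, with r = 0.96 between Cd3d and Gzma, and the Cd3e and Cd4 probes lie outside it.

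The comparison of TME with control endothelial cells is the one in which no array ran against the others. With all samples none of the 10 genes was called, while 0.578% of all probes were called higher. The groups did not overlap for 7 of the 10 genes (Cd3d, Cd3g, Cd8a, Gzma, Gzmb, Prf1 and Nkg7), all higher in ET, against 7.05% of all probes higher without overlap. Cd3e and Cd4 differed by -0.01 (95% interval -0.77 to 0.75) and 0.01 (-0.44 to 0.46), and Ncr1 overlapped between the groups. Without array 4 of the Ito and Kupffer cells, which leaves the endothelial values as they are and narrows the shared spread, 3 genes were called higher (Cd8a, Gzma and Nkg7), against 0.835% of probes. With only the endothelial samples in the fit, 5 genes were called higher, adding Cd3d and Cd3g, against 2.77% of probes.

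For TME against control Ito cells none of the 10 was called with all samples (0.269% of probes called higher). Without array 4 the genes called higher were 7 of 10, namely Cd3d, Cd3g, Cd8a, Gzma, Gzmb, Prf1 and Nkg7, against 3.69% of probes. That array was left out because its difference ran opposite, so these calls describe the other Ito arrays and are not a separate test. Over the 15 alternatives the adjusted p of each of these 7 reached 1, and its lowest value ran from 4.92e-09 for Gzma to 0.00129 for Prf1. For Kupffer cells none was called with all samples (0.372% of probes called higher) and none had an unadjusted p under 0.05. Without array 4, Cd3g, Gzma and Gzmb were called higher in KT, against 1.75% of probes. Over the 15 alternatives the adjusted p of these 3 genes reached 1, and the lowest values were 0.0045, 1.21e-05 and 0.00729.

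Within arrays the members showed how array 4 stood against the others. The median TME minus control difference over the 10 genes was 0.75, 1.35, 0.52 and 0.77 on endothelial arrays 1 to 4. It was 2.42, 3.32, 2.40 and -2.10 on the Ito arrays, and 1.29, 1.12, 0.09 and -1.31 on the Kupffer arrays. On Kupffer array 3 the members were split, with 6 higher and 4 lower in the TME sample. On Kupffer array 4 all 10 genes were lower in the TME sample, and on Ito array 4 this held for 8 of 10. The median of all probes stayed between -0.01 and 0.03 on each of these 12 arrays.

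**Figure D4:**
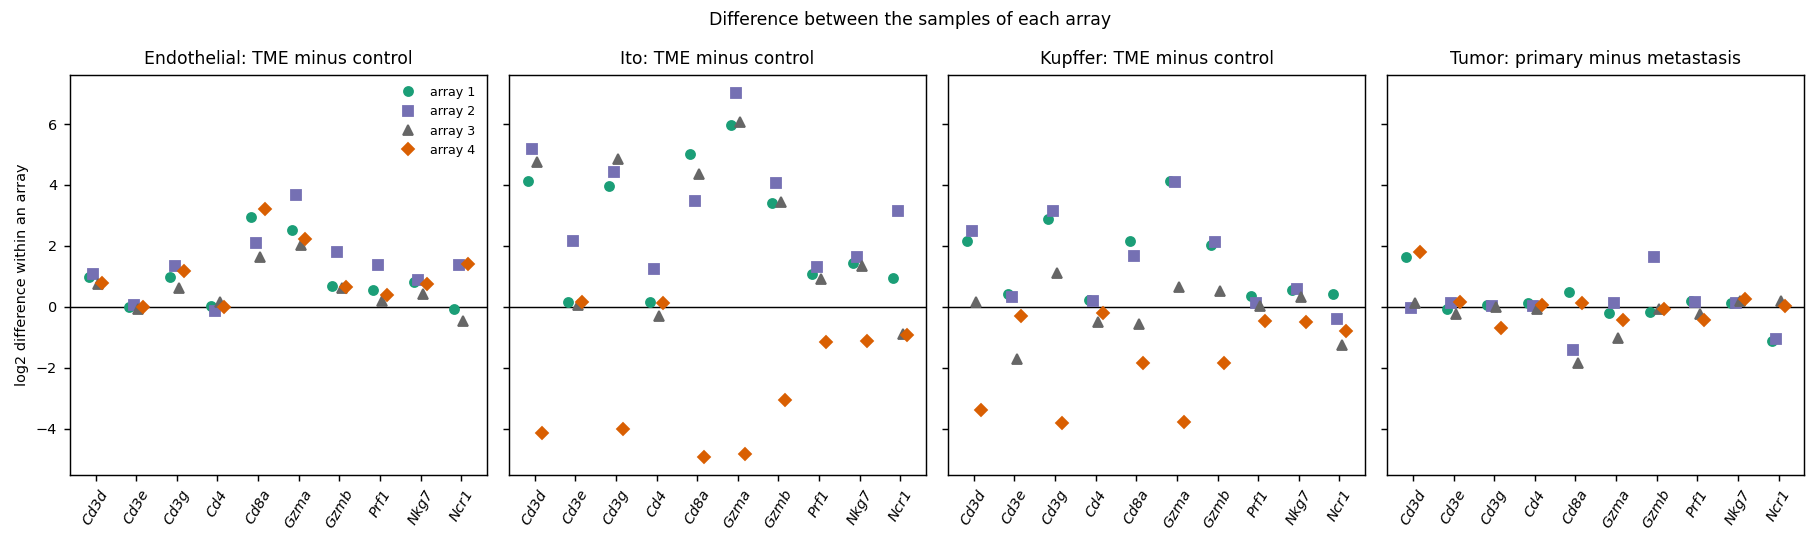
Log2 difference between the samples hybridized to each array (y axis; TME minus control for the liver cells, TP minus TM for the tumors) for each of the 10 genes (x axis), 1 symbol per array. The endothelial arrays lie together, whereas array 4 of the Ito and of the Kupffer cells lies below 0 where the others lie above it, with Gzma at 5.98, 7.03, 6.06 and -4.85 on the Ito arrays.

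Whether the TME difference itself depended on the cell type was tested by interaction terms, in which the dyes cancel. With all samples no member was called, among 0.111% of probes called for Ito against endothelial cells, 0.0808% for Kupffer against endothelial cells and 0.00359% for Kupffer against Ito cells, and no member had an unadjusted p under 0.05. Without array 4 the difference was called larger in Ito than in endothelial cells for Cd3d (3.78, SE 0.68, adjusted p = 0.00356), Cd3g (3.39, SE 0.79, adjusted p = 0.0263), Gzma (3.75, SE 0.84, adjusted p = 0.021) and Gzmb (2.70, SE 0.57, adjusted p = 0.0146), against 0.893% of probes. Over the 14 alternatives the adjusted p of these 4 genes reached 1. No member was called in the other interaction terms without array 4.

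The cell types were compared on the same dye and slide. Control Ito against control endothelial cells gave no called member with all samples, and 5.72% of probes were called lower. Gzmb, at 8.79 ± 1.98 (SD, n = 4) in IC and 10.81 ± 0.18 in EC, was nearest among the granule genes with an adjusted p of 0.089. Without array 4, Cd3d (-3.03), Cd3g (-3.05), Gzma (-3.93) and Gzmb (-2.98) were called lower in IC, with 6.59% of probes called lower and with Cd3d and Cd3g above background in 1 of the 3 IC samples. Control endothelial fractions thus held more signal for these 4 genes than the control Ito fractions of arrays 1 to 3.

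In TME Ito against TME endothelial cells 1 member was called, Cd4, at 10.09 in IT against 9.34 in ET (0.75, SE 0.22, adjusted p = 0.0304), while 3.48% of probes were called higher. Its IT samples read 9.73, 11.11, 9.50 and 10.01, and replicate 2 was also the high sample for Cd3e. The difference was 0.38 without replicate 2 (adjusted p = 0.287). The call was also lost without replicate 1 (adjusted p = 0.0963), without replicate 4 (adjusted p = 0.124) and without array 4 of the Ito and Kupffer cells (adjusted p = 0.0603), and it held in 7 of 14 alternatives, with adjusted p between 0.0204 and 0.341. The other genes that separated TME from control cells were not called between IT and ET, with or without array 4.

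In the tumor samples the main probes of Cd3d, Cd3g, Cd8a, Gzma, Gzmb and Ncr1 were not well above background. Those of Cd3e, Cd4, Prf1 and Nkg7 were, in every tumor sample. Gzma read 3.57, 2.17, 3.40 and 3.1 in TM and 3.38, 2.29, 2.37 and 2.68 in TP, with no sample well above background. Against control Kupffer cells, Gzma was at least 4.99-fold lower (adjusted p = 0.00123) and Gzmb at least 3.05-fold lower (adjusted p = 8.84e-07) in TM. The Gzma call held in 12 of 14 alternatives and was lost in both fits that start from the normexp-corrected scanner signals (adjusted p = 0.0715, and 0.0678 with the loess signals that the bound uses), with a range of 1.66e-06 to 0.0715. In TP they were at least 8.82-fold (adjusted p = 4.31e-05) and at least 4.14-fold lower (adjusted p = 2.63e-07) than in TME Kupffer cells. Without array 4 these bounds were 3.43-fold and 2.6-fold in TM, and 16.1-fold and 5.47-fold in TP, where KT replicate 4 was left out. The main Nkg7 probe fell by 1.31 in TM (SE 0.28, adjusted p = 0.000353) and by 1.38 in TP (adjusted p = 0.000173). Cd3g was called at least 1.19-fold lower in TP (adjusted p = 0.0364, between 1.73e-06 and 0.307 over all alternatives), although KT replicate 4 was itself at the tumor level.

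Prf1 went the other way, with 8.73, 8.91, 8.96 and 8.91 in TM and 8.93, 9.08, 8.71 and 8.48 in TP, above every Kupffer sample. The difference was 1.49 for TM against KC (SE 0.26, adjusted p = 2.25e-05) and 1.41 for TP against KT (SE 0.26, adjusted p = 4.35e-05), and the adjusted p stayed under 0.05 in each of the 14 alternatives that gave one. Prf1 was thus the only member called higher in tumors, among 23.3% of probes called higher in TM and 25.7% in TP. The 3 genes called lower in TM and 4 in TP stood among 16.2 and 17.8% of probes called lower. Without array 4, 4 genes were called lower in TM (16.1% of probes) and 6 in TP (17.5% of probes), with Cd3d added in both and Cd8a in TP, although no TP or KT sample was above background for Cd8a.

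Primary tumors and metastases were not told apart by these genes, on arrays that did not all run alike. Over the probes well above background in all samples, the TP minus TM difference had r = -0.20 on array 1 and -0.07 on array 4 with the mean of the other arrays. It was 0.64 on arrays 2 and 3. No member was called between TP and TM, among 3.01% of probes called in either direction, and none had an unadjusted p under 0.05. The widest interval was that of Gzma, with a difference of -0.38 (95% interval -2.91 to 2.14) between values at background on both sides. For Prf1, measured in all 8 samples, the difference was -0.08 (95% interval -0.60 to 0.45).

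Ranked by group mean, ET was highest for Cd3d, Cd3g, Cd8a, Gzma, Gzmb and Ncr1, and a tumor group was lowest for these 6 genes. Without array 4 of the Ito and Kupffer cells IT was instead the highest for Cd3d (8.70 against 7.95 in ET), Cd3g (7.91 against 7.57) and Cd8a (6.40 against 5.99). Most neighbours in the orders over all samples overlapped. For Gzma the order ran ET 13.65, IT 12.16, EC 11.05, KT 9.43, IC 8.60, KC 8.16, TM 3.06 and TP 2.68, and the neighbours whose ranges did not overlap were EC and KT, and KC and TM. For Cd3d, running from ET at 7.95 to TM at 2.41, each group overlapped with the next.

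Genes outside the 10 were ranked by their likeness to them over the 24 liver samples, among the 27417 probes well above background in at least 12 of these. To the mean of the CD3 genes, the most alike were Thy1 (r = 0.969), a surface protein of mouse T cells, the constant region of the T cell receptor beta chain (ENSMUST00000103299, r = 0.961), a probe with no gene name (A_55_P2011341, r = 0.948), Skap1 (r = 0.947), an adaptor of T cell receptor signalling, and Spn (r = 0.945), the leukocyte sialoglycoprotein CD43. To the mean of Gzma, Gzmb, Prf1 and Nkg7 they were the same unnamed probe (r = 0.993), Thy1 (r = 0.990), a granzyme A-like locus, LOC101056661 (r = 0.975), Spn (r = 0.969) and Skap1 (r = 0.968). The unnamed probe lies at chr13:113884029-113884088 and shares a run of 54 bases with the Gzma probe, so these 2 probes read the same place. All of these values describe samples that share arrays, with array 4 included. In the tumors, the Spn and LOC101056661 probes were well above background in all 8 samples. Thy1 was in 6 and the T cell receptor beta probe in 5, while Skap1 and the unnamed probe were in none.

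Related genes were taken as lists. Of 22 measured genes of the T cell receptor complex and its signalling, 1 was called higher in ET with all samples, Cd8b1, the partner chain of Cd8a, which read 5.96 in ET against 2.64 in EC, where no sample was above background (at least 1.87-fold, adjusted p = 0.0292). In this comparison 0.578% of all probes were called higher. The median difference of this list was 0.42 against 0.01 over all probes. Without array 4 of the Ito and Kupffer cells 9 of the 22 were called higher in IT, including the kinases Lck (2.48, adjusted p = 0.00121) and Zap70 (2.77, adjusted p = 0.0061), the CD2 and CD5 surface proteins, the costimulator Icos and Cd8b1, against none with all samples. Of all probes 3.69% were called higher in IT without array 4. Cd6 was called lower in TP than in TM, at 5.56 against 6.46 (adjusted p = 0.0287), where 3.01% of probes were called in either direction.

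Of 20 measured NK and cytotoxic genes none was called in ET with all samples (median 0.65), and without array 4 the receptors Klrd1 (2.29, adjusted p = 0.00163), Klrc1 (2.09, adjusted p = 0.000111) and Cd96 (1.34, adjusted p = 0.00216) were. In IT, 10 of the 20 were called higher without array 4, among them Ifng, the cytokine interferon gamma (adjusted p = 3.34e-06, with IC replicate 4 the only IC sample above background), and none with all samples. Without array 4 the shares of all probes called higher were 0.835% in ET and 3.69% in IT. Klre1, an NK receptor, was the 1 gene called in KT with all samples, at 4.95 in KT against 2.23 in KC, where no sample was above background (at least 1.37-fold, adjusted p = 0.000951). Without array 4, 4 genes were called in KT, with Klrd1, Ifng and Cd96 added. Of all probes 0.372% were called higher in KT with all samples and 1.75% without array 4. Xcl1, a chemokine of activated T and NK cells, was called lower in Ito than in endothelial cells, with a mean of 2.95 in IC against 7.46 in EC (adjusted p = 0.00164) and of 4.06 in IT against 7.97 in ET (adjusted p = 0.00727) and 1 of 4 samples above background in either Ito group, and Il2rb, a chain of the interleukin 2 receptor, was called lower in IC than in EC (adjusted p = 0.0451).

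In the tumors against Kupffer cells, 9 of the 22 T cell receptor genes were called lower in TM and 11 in TP, and 9 and 11 of the 20 NK and cytotoxic genes, where 16.2 and 17.8% of all probes were called lower. Among them were Klrk1, the NKG2D receptor, at least 10.1-fold lower in TM and at least 11.6-fold lower in TP, and Ccl5, a chemokine that these and other leukocytes make, which fell by 9.51 and by 8.78 on the log2 scale. Fyb and Tyrobp, called lower in both, are also expressed by myeloid cells. Of 10 transcription factors Tbx21, the T-bet factor of cytotoxic lymphocytes, was called lower in both tumor groups, whereas Lef1 and Gata3 were called higher in both and Foxp3 in TM. Between TME and control cells no transcription factor was called with all samples. Without array 4 Tbx21, Eomes and Gata3 were called higher in IT, against 3.69% of probes.

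Among the marker lists of other cells, that of neutrophils had higher means in ET than in EC and, as for Gzma, stood high in IC replicate 4 and low in IT and KT replicate 4, but not high in KC replicate 3. The mean level of 8 neutrophil markers ranged from 4.94 to 5.64 in EC and from 6.46 to 8.15 in ET, with 3 to 6 and 5 to 8 of the 8 above background, and their median difference was 2.31, none called with all samples and S100a8 and Camp called without array 4, against 0.835% of probes. In Ito cells it ranged from 4.66 to 7.81 in IC and 5.19 to 8.74 in IT, and in tumors from 3.38 to 5.76. The mean of the 8 B cell markers was 4.65 to 6 in ET and 5.99 to 6.11 in EC, with a median difference of -1.08, and 1 of the 8, Fcrla, was called lower. The 6 dendritic cell markers had median differences of -0.29, -0.12 and -0.18 between TME and control endothelial, Ito and Kupffer cells, with none called. The mean of 3 markers of all leukocytes (Ptprc, Coro1a and Laptm5) lay between 9.32 and 12.58 in the liver fractions and between 4.31 and 8.09 in the tumors. Their part in the differences of the T and NK genes was not tested.

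Markers of each liver cell type were present in the fractions of the others. The mean of the 8 endothelial markers was 12.39 to 12.46 in EC, 10.47 to 12.44 in the Ito and 11.40 to 12.05 in the Kupffer samples, and all 8 were above background in each liver sample. All 9 Kupffer markers were likewise above background in each endothelial and Ito sample. IT replicate 2 held the lowest endothelial mean, 10.47. Its Kupffer marker mean was 11.38, against 14.58, 14.54 and 13.25 in IT replicates 1, 3 and 4. The mean of the 8 Ito cell markers was 7.80 to 8.40 in IC and 8.77 to 9.25 in EC, against the label, with a median difference of -0.91 and none called. The 8 hepatocyte markers were highest in the Ito fractions, with means of 11.87 to 12.85 against 9.25 to 10.11 in endothelial cells, and 7 of 8 were called higher in both IC and IT. The tumor samples had 2 or 3 of the 8 endothelial markers above background. The labelled liver cell types are therefore named by their isolation. The paper reports high purity of each fraction by immunochemistry for endothelial, Kupffer and Ito cell markers. That is a measure on protein, which these RNA levels do not replace.

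**Figure D5:**
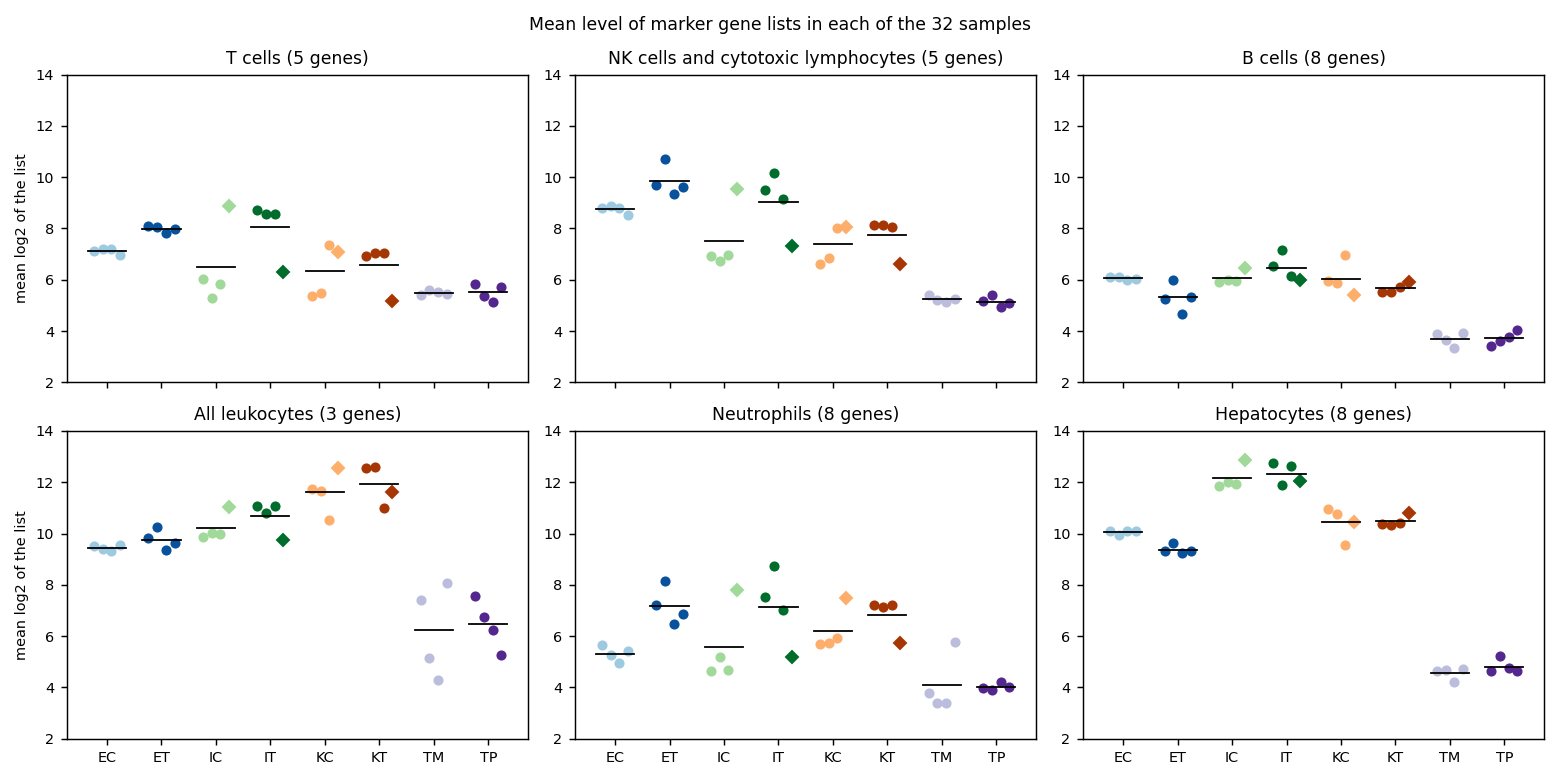
Mean log2 deposited intensity over the markers of 6 lists (y axis) in each of the 32 samples (x axis, by group), with bars at the group means and diamonds for replicate 4 of the Ito and Kupffer cells. The T cell and NK lists are the 10 members themselves, with the Cd3e and Cd4 probes included, so they add nothing to the gene values. The T cell, NK and neutrophil lists are higher in ET than in EC without overlap, and array 4 of the Ito cells reads high in the control and low in the TME sample for all 3.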

How the data were processed

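RNA of 32 samples was hybridized as single channels to 16 two-colour Agilent arrays, which the authors read with Feature Extraction. The authors deposited a table of quantile-normalized intensity per probe, in which probes with 10 spots hold the first spot, and the scanner output with the processed, mean and background signal of each spot. The table was the main source, matched by probe name, and was taken to log2 here. Its values followed the processed signal of their own channel (Spearman 0.9996 to 0.9999).

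Groups were taken from the labels. A linear model of 8 groups was fitted to all 32 samples with limma 3.58.1 (lmFit and eBayes) in R 4.3.3, and p values were adjusted by Benjamini-Hochberg over 55681 probes. A gene was called at an adjusted p under 0.05 on its main probe, the one well above background in most samples. Contrasts between cell types and tumors were kept within dye and slide. The scripts were tested on simulated data, and figures were drawn with matplotlib 3.10.9. The paper calls the replicates biological, but no source says that they came from separate animals. The p values therefore measure the spread between these samples, and the number of arrays limits the precision.

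The named genes are the 10 members, the 5 genes most alike to each of 2 groups of them (Pearson r over 24 liver samples), and the genes of related lists that were called, some of which are not reported here. Members and lists were chosen with earlier results of these data known. Same-numbered samples deviated from their group means with r between -0.64 and 0.40. The lowest values, -0.64 and -0.57, were those of array 4 of the Ito and Kupffer cells, and the endothelial arrays lay between 0.05 and 0.40. This range mixes the opposite arrays with the others, so whether the numbers pair samples beyond the shared array cannot be told from it. Alternatives covered background correction (normexp, offset 50), loess and 75th percentile scaling, the scanner's processed signal, a filter on dim probes, the array as a random block, the samples in the fit, the methods' t-test and thresholds, another main probe, subtraction of the tumor difference, and leaving out each replicate.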

Additional observations from a re-analysis of the deposited data

Results flagged for a closer look

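In 18 of 80 combinations of gene and group, 1 sample stood far from the other 3, where chance gives about 1 in 20. Each value that follows is the gap to the nearest other sample as a share of the group's range, with the log2 intensities of the sample and of its nearest neighbour. Replicate 4 of the TME Kupffer cells stood apart for 6 genes, with Cd3d at 0.859 (2.50 against 5.61), Cd3g at 0.858 (2.03 against 5.37), Cd8a at 0.932 (2.57 against 4.03), Gzma at 0.951 (6.44 against 10.32), Gzmb at 0.952 (6.81 against 8.88) and Nkg7 at 0.911 (10.23 against 10.61), each time as the lowest sample. Replicate 4 of the TME Ito cells was the lowest for Cd3d at 0.889 (4.80 against 8.51), Gzmb at 0.832 (8.61 against 11.25) and Prf1 at 0.897 (7.51 against 8.41). Replicate 4 of the control Ito cells was the highest for Cd8a at 0.872 (7.21 against 2.53), Gzma at 0.911 (13.05 against 7.40) and Nkg7 at 0.97 (11.04 against 9.48). These 12 lie on the arrays whose differences ran against the others of their cell type.

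The Cd3e probe stood high in TME Ito replicate 2 at 0.936 (11.48 against 9.37) and in control Kupffer replicate 3 at 0.871 (10.82 against 9.11). Ncr1 stood high in TME endothelial replicate 2 at 0.838 (6.45 against 4.58). In tumor samples not above background, Cd3g in TM replicate 4 gave 0.962 (2.87 against 2.07), Cd8a in TP replicate 1 gave 0.997 (3.74 against 2.23) and Gzmb in TP replicate 2 gave 0.954 (3.99 against 2.32).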

How the results depend on the processing

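Of the 10 calls of a gene in a comparison, set against 14 alternatives each, 124 of 140 stayed called, 16 were no longer called and 0 reversed. The calls for TM against KC were Gzma, Gzmb, Prf1 and Nkg7. Those for TP against KT were the same genes and Cd3g, and Cd4 was the call for IT against ET. None of the 10 was between TME and control cells, where no member was called with all samples. The counts of called genes moved as follows. For ET against EC, 5 genes were called with only the groups compared in the fit and 5 by the methods' t-test with adjustment, against 0. For IC against EC, 1 was called with the filter on dim probes (Gzmb, lower), 1 with only the groups compared (Cd4, higher) and 1 by the methods' t-test. For IT against ET the 1 call (Cd4) became 0 with 75th percentile scaling, with only the groups compared, by the methods' t-test, with the highest-variance probe and at an adjusted p under 0.001 with 4-fold. At that threshold 1 gene remained for TM against KC (Gzmb) and 2 for TP against KT (Gzma and Gzmb). Leaving out each replicate number in turn gave 0 to 1 call for ET against EC, 0 to 7 for IT against IC, 0 to 1 for KT against KC, 0 to 5 for IC against EC, 0 to 1 for IT against ET (Cd4 without replicate 3, Ncr1 without replicate 2, Nkg7 without replicate 4 and none without replicate 1), 0 to 1 for the interaction terms, 4 to 5 for TM against KC and 4 to 6 for TP against KT, with the upper ends of the first 4 and of the interaction terms without replicate 4.

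A pair of settings was chosen after seeing the data. Without array 4 of the Ito and Kupffer cells, 3, 7 and 3 genes were called between TME and control endothelial, Ito and Kupffer cells, 4 for IC against EC, 0 for IT against ET and 4 in the interaction terms. With KC replicate 3 left out as well, these were 3, 7, 4, 4, 1 and 4. With the array as a random replicate block the counts were 1 for IT against ET, 4 for TM against KC, 5 for TP against KT and 0 otherwise, so the block changed no count. Subtracting the tumor difference gave 0 calls in all 3 liver cell types. The cause of these moves was not tested, apart from the fewer samples in the fit. Signal over background limits Ncr1, Cd8a and most tumor values.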

Other observations

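For the 399 probes with 10 spots, the deposited value ranked as the first spot did (Spearman 1), against 0.9543 to 0.9925 with the mean of the spots.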
